A study of Mus musculus with 30 samples.

Results

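The genes described are 7 proteases that mast cells and basophils store in their granules, taken by symbol from the expression tables: the tryptases Tpsb2 and Tpsab1, the chymases Cma1 and Mcpt4, the carboxypeptidase Cpa3, and Mcpt8 and Prss34, which mark basophils. They are 7 of 24421 genes listed, and all 7 were found in all 5 tables. They were chosen with the difference between T2 and T1 cells already known, so their own differences are given as a description, with no test, and tests were run on other genes.

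RNA was sequenced from progenitors sorted out of mouse bone marrow in a study of Bcl11a, a zinc finger repressor, which asked about its role within the cells and about its overexpression in wild-type cells. The 30 libraries form 10 groups of 3, and each of 5 tables holds a T2 and a T1 group: KOiMOS MPP3 of 3 months, WTiMOS MPP3 of 3 months and of 24 months, and WTiMOS MPP4 of 3 months and of 24 months. MPP3 are multipotent progenitors known for myeloid output and MPP4 for lymphoid output. The labels give T1 and T2 as part of the genotype and do not say what they stand for, which allele or driver each carries, or whether the 3 libraries of a group, or the T2 and T1 cells of a table, came from different animals, and so every spread and p-value here measures the difference between libraries, which may be technical. KOiMOS cells of 24 months were not analysed here.

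Mast cells and basophils arise from myeloid progenitors in the marrow, and both carry the high-affinity receptor for IgE. On activation they release granules in which proteases are bound to heparin or other proteoglycans together with histamine. Mature mast cells are the main source of tryptase, chymase and Cpa3, the transcription factor Gata2 is needed by both lineages, and in mice Mcpt8 and Prss34 (also called mMCP-8 and mMCP-11) are made mainly by basophils.

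The 7 genes lie at 3 places in GRCm38 by the GENCODE vM21 annotation, and all are protein coding. Tpsb2 (chr17:25366305-25369098, plus strand), Tpsab1 (chr17:25343245-25345562, minus strand) and Prss34 (chr17:25298394-25300165, plus strand) stand in the tryptase locus. Cma1 (chr14:55941451-55944675), Mcpt4 (chr14:56059629-56062313) and Mcpt8 (chr14:56082166-56085273) stand in the chymase locus on the minus strand. Cpa3 stands alone (chr3:20215620-20242181, minus strand). Promoters of 300 bases, from 250 before to 50 after the start of the gene, were present in the RefSeq table of GRCm38.p6 for 5 of the 7 genes, all but Tpsb2 and Tpsab1. Of these, 4 are shown because their genes differ in where they were found: Mcpt4 and Cma1 were high mainly in T2 cells of MPP3, while Cpa3 and Mcpt8 were present in every library. Capitals mark the binding motif of GATA factors, searched on both strands as AGATAA or as AGATAG, and likewise as TGATAA or as TGATAG. No match overlapped another. The sequences run 5′ to 3′ on the gene's own strand, from chr14:56062261-56062560 (Mcpt4), chr14:55944626-55944925 (Cma1), chr3:20242132-20242431 (Cpa3) and chr14:56085148-56085447 (Mcpt8), all on the minus strand.
Mcpt4: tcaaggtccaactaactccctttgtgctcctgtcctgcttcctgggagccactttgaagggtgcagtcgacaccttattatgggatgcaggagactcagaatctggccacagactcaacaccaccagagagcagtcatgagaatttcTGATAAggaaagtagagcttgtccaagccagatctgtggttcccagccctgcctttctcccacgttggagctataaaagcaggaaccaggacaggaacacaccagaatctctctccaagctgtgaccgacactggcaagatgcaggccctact
Cma1: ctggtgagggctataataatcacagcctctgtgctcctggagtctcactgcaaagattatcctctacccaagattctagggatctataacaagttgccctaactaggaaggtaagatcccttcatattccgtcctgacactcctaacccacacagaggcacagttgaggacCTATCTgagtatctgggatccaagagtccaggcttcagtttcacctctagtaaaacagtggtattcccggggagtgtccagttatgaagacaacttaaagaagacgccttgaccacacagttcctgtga
Cpa3: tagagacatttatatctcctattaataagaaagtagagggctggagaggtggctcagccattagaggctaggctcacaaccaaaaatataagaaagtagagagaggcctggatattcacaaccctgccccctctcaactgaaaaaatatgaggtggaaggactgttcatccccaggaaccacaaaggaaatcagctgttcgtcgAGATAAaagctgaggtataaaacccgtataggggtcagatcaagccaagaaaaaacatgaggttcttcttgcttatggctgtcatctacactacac
Mcpt8: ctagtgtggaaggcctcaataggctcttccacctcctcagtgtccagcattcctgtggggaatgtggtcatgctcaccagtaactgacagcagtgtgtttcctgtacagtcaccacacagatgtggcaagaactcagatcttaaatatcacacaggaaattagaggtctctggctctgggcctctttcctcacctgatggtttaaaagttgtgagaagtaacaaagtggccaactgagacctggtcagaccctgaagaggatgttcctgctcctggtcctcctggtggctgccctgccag
The motif was found once in each of 4 of the 5 promoters. It began 103 bases before the start of Mcpt4, 79 before that of Cma1 (on the opposite strand, so read as CTATCT), 46 before that of Cpa3 and 31 before that of Prss34. None of the 4 forms was in the window of Mcpt8. Of all 32851 promoters of the same length, 29.8% held at least 1 of them, so a match is common.

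Values are TPM, in which each library sums to 1000000. They are scaled for the length of a gene, so levels of different genes can be compared, but they keep no record of read depth. The libraries of a group correlated at r = 0.988 to 0.998 and listed 10519 to 12008 genes at 1 TPM or more. An exact 0 can be a failed estimate, and a value of 0 is therefore given as listed at 0. Of 8 genes that every cell uses, 0 values were listed at 0, while 25 of 5547 genes with a mean of 20 TPM or more had a library at 0. In 11 cases 1 library was at 0 in a group that reached 20 TPM, as for Tpsb2 in T2 cells of WTiMOS MPP3 of 3 months. The progenitor gene Cd34 averaged 99.2 TPM or more and the receptor Flt3 19.9 TPM or more in every group. Bcl11a averaged 68.2 ± 3.41 TPM in T2 and 70.3 ± 2.48 TPM in T1 cells labelled KOiMOS (SD, n = 3), with overlapping libraries, so gene-level RNA did not show the loss its label names, although a partial deletion need not lower a value taken over the gene as a whole. All directions given for KOiMOS libraries rest on that label. In WTiMOS cells every T2 library held more Bcl11a than every T1 library of its table, from 65.0 ± 1.20 TPM in T2 against 39.4 ± 3.83 TPM in T1 (MPP4 of 3 months) to 39.1 ± 5.63 TPM in T2 against 11.2 ± 2.32 TPM in T1 (MPP3 of 24 months). In bulk RNA, fewer cells of a type and less RNA per cell cannot be told apart.

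The 7 genes together made up 0.439% to 0.472% of all TPM in T2 libraries of KOiMOS MPP3, against 0.0403% to 0.0508% in their T1 libraries. WTiMOS MPP3 of 24 months ran the other way, with 0.0730% to 0.0822% in T2 and 0.222% to 0.247% in T1 libraries, and in T1 nearly all of it was Cpa3 and Mcpt8. In MPP4 of 3 months the sum was 0.00506% to 0.00560% in T2 and 0.00276% to 0.00332% in T1 libraries, so T2 was higher. In MPP4 of 24 months it was lower in T2, at 0.00627% to 0.00800%, against 0.0227% to 0.0266% in T1 libraries. T2 libraries of WTiMOS MPP3 of 3 months stood apart from each other in these genes, as described below.

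**Figure D1:**
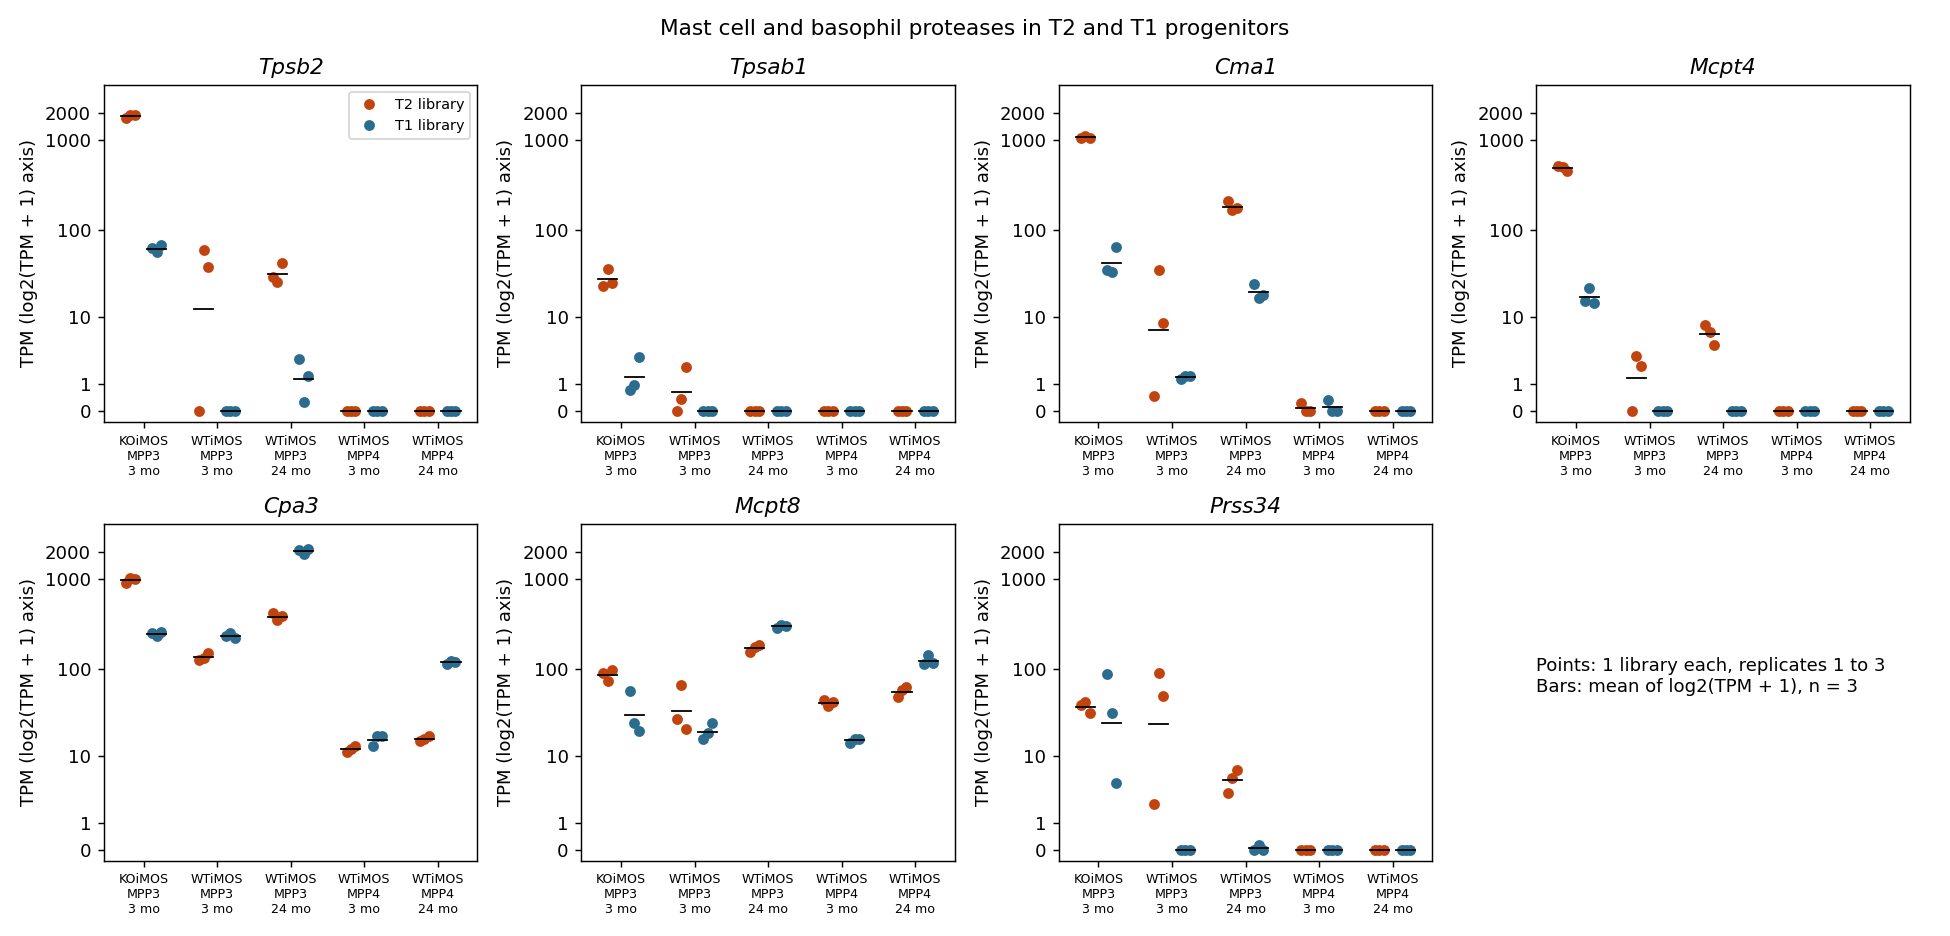
TPM of the 7 proteases in each library (points; axis of log2(TPM + 1)) for the 5 tables, T2 left of T1, with bars at the mean of log2(TPM + 1) of the 3 libraries of a group. Tpsb2, Tpsab1, Cma1 and Mcpt4 were highest in T2 cells of KOiMOS MPP3, while Cpa3 and Mcpt8 were highest in T1 cells of WTiMOS MPP3 of 24 months.

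Tpsb2, the main mouse tryptase of connective tissue mast cells, was the most abundant of the 7 in T2 cells of KOiMOS MPP3. It measured 1780, 1913 and 1888 TPM in the 3 T2 libraries, against 62.6, 56.3 and 67.8 TPM in the 3 T1 libraries. The groups were far apart, by 4.88 ± 0.083 (SE) on the log2(TPM + 1) scale, the largest positive difference of the 12100 genes tested in that table. At 24 months WTiMOS MPP3 held 29.2, 25.6 and 42.9 TPM in T2 and 2.74, 0.272 and 1.45 TPM in T1 libraries, again with no overlap (3.85 ± 0.50). At 3 months it was listed at 0, 59.5 and 38.6 TPM in T2 and at 0 in all 3 T1 libraries of WTiMOS MPP3. All 12 MPP4 libraries listed it at 0. The order of groups by mean was KOiMOS T2, KOiMOS T1, WTiMOS T2 of 3 months, WTiMOS T2 of 24 months and WTiMOS T1 of 24 months. Libraries of KOiMOS T1 overlapped those of WTiMOS T2 of 3 months, which in turn overlapped those of WTiMOS T2 of 24 months. Levels of different tables are set side by side without a test, because table and condition cannot be told apart.

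Tpsab1, the second tryptase gene of the locus, was also highest in T2 cells of KOiMOS MPP3, at a far lower level. It reached 23.2, 36.9 and 25.0 TPM in T2 and 0.707, 0.965 and 3.01 TPM in T1 libraries of KOiMOS MPP3, which did not overlap. WTiMOS MPP3 of 3 months had 0, 0.348 and 2.09 TPM in T2, while all 3 T1 libraries listed it at 0. The other 18 libraries listed it at 0, those of WTiMOS MPP3 of 24 months included, where Tpsb2 was present. Per library the ratio of Tpsb2 to Tpsab1 was 51.9 to 76.8 in T2 cells of KOiMOS MPP3. The longest transcripts of Tpsb2 and Tpsab1 shared 0 stretches of 50 bases with each other or with other genes.

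Cma1, the mouse chymase closest in sequence to the human enzyme, was the second most abundant in T2 cells of KOiMOS MPP3, with 1051, 1120 and 1053 TPM, against 35.8, 33.4 and 64.5 TPM in T1 libraries. The groups did not overlap and the difference was 4.63 ± 0.30 (log2). WTiMOS MPP3 of 24 months had 209, 168 and 176 TPM in T2 and 24.7, 17.01 and 18.4 TPM in T1 libraries (3.15 ± 0.18), so that T2 lay above T1 in both of these tables. In WTiMOS MPP3 of 3 months the T2 libraries, at 0.474, 35.1 and 8.50 TPM, lay on both sides of the T1 libraries at 1.25, 1.47 and 1.47 TPM. MPP4 libraries of 3 months held at most 0.235 TPM in T2 and 0.332 TPM in T1, and those of 24 months were listed at 0.

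Mcpt4, the chymase of mouse connective tissue mast cells, read 513, 504 and 457 TPM in T2 and 15.4, 22.0 and 14.8 TPM in T1 libraries of KOiMOS MPP3. Its difference of 4.76 ± 0.18 (log2) was the second largest of the table, and that of Cma1 the third. It was lower in WTiMOS MPP3: 7.96, 6.54 and 4.40 TPM in T2 of 24 months and 0, 3.10 and 2.17 TPM in T2 of 3 months, against values listed at 0 in all 6 T1 libraries. MPP4 libraries listed it at 0. By mean the order was KOiMOS T2, KOiMOS T1, WTiMOS MPP3 T2 of 24 months and WTiMOS MPP3 T2 of 3 months, with no overlap between neighbours. For Cma1 it was KOiMOS T2, WTiMOS MPP3 T2 of 24 months and KOiMOS T1, then WTiMOS MPP3 T1 of 24 months and T2 of 3 months, which overlapped. The 2 chymases stood in different proportions, with a ratio of Cma1 to Mcpt4 of 2.05 to 2.31 in T2 of KOiMOS MPP3 and of 25.7 to 39.9 in T2 of WTiMOS MPP3 of 24 months. Of the stretches of 50 bases in the longest transcript, 5.38% for Cma1 were shared with Gm48934 and 5.48% for Mcpt4 with Cma2, so small parts of both values may come from the other gene.

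Cpa3, a carboxypeptidase of mast cell granules that is also made early in the mast cell and basophil lineages, was listed above 0 in all 30 libraries. KOiMOS MPP3 had 897, 1029 and 995 TPM in T2 and 250, 234 and 257 TPM in T1 libraries, T2 being higher with no overlap (1.97 ± 0.072, log2). WTiMOS MPP3 went the other way. At 3 months it had 125, 131 and 149 TPM in T2, against 232, 248 and 223 TPM in T1 libraries (-0.80 ± 0.086). At 24 months it had 418, 347 and 384 TPM in T2, against 2070, 1890 and 2151 TPM in T1 libraries, the highest group of all (-2.41 ± 0.095). MPP4 of 24 months likewise had 14.9, 16.1 and 17.1 TPM in T2 and 113, 123 and 120 TPM in T1 libraries, a difference of -2.81 ± 0.066, the 11th lowest of 11366 genes tested. In MPP4 of 3 months the groups overlapped, at 11.2, 12.1 and 13.1 TPM in T2 and 13.1, 17.1 and 17.01 TPM in T1 libraries, and the difference of -0.34 turned to 0.43 when each library was scaled by its median ratio. The order by mean was T1 of WTiMOS MPP3 of 24 months, T2 of KOiMOS MPP3 and T2 of WTiMOS MPP3 of 24 months, which did not overlap, then the T1 groups of KOiMOS and WTiMOS MPP3 of 3 months, which did. T2 of WTiMOS MPP3 of 3 months and T1 of MPP4 of 24 months came next without overlap, and the other 3 MPP4 groups overlapped at the low end.

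Mcpt8, a serine protease of basophils, was also listed above 0 in every library. KOiMOS MPP3 had 89.4, 72.7 and 97.8 TPM in T2 and 55.7, 24.2 and 19.9 TPM in T1 libraries, with no overlap (1.49 ± 0.46, log2). In MPP4 of 3 months it had 44.6, 38.5 and 42.2 TPM in T2 and 14.2, 16.1 and 15.7 TPM in T1 libraries, again higher in T2 (1.39 ± 0.079). At 24 months both progenitors had less of it in T2. MPP3 had 155, 178 and 183 TPM in T2 against 282, 311 and 303 TPM in T1 libraries (-0.80 ± 0.084), and MPP4 had 47.8, 57.5 and 62.9 TPM in T2 against 114, 142 and 117 TPM in T1 libraries (-1.14 ± 0.15). WTiMOS MPP3 of 3 months, at 27.2, 66.2 and 20.8 TPM in T2 and 15.8, 18.8 and 24.4 TPM in T1 libraries, overlapped. The ratio of Cpa3 to Mcpt8 was 0.25 to 0.314 in T2 and 0.867 to 1.08 in T1 libraries of MPP4, with no overlap at either age. By mean the 2 MPP3 groups of 24 months stood highest, then T1 of MPP4 of 24 months, T2 of KOiMOS MPP3 and T2 of MPP4 of 24 months, with no overlap between neighbours. The other 5 groups, at 15.3 to 41.8 TPM, each overlapped the next.

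Prss34, a tryptase-like protease of basophils, varied widely between libraries of a group. KOiMOS MPP3 had 39.3, 42.9 and 31.5 TPM in T2 and 87.4, 31.9 and 4.50 TPM in T1 libraries, so that the T1 libraries lay on both sides of T2. WTiMOS MPP3 of 3 months had 2.21, 89.2 and 49.8 TPM in T2, while all 3 T1 libraries listed it at 0. At 24 months it had 3.31, 5.24 and 6.70 TPM in T2 and 0, 0.139 and 0 TPM in T1 libraries. The groups of both WTiMOS tables did not overlap. MPP4 listed it at 0 throughout. The 3 highest groups, with means of 47.1 ± 43.6 TPM in T2 of WTiMOS MPP3 of 3 months, 37.9 ± 5.86 TPM in T2 of KOiMOS MPP3 and 41.3 ± 42.2 TPM in T1 of KOiMOS MPP3, overlapped.

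**Figure D2:**
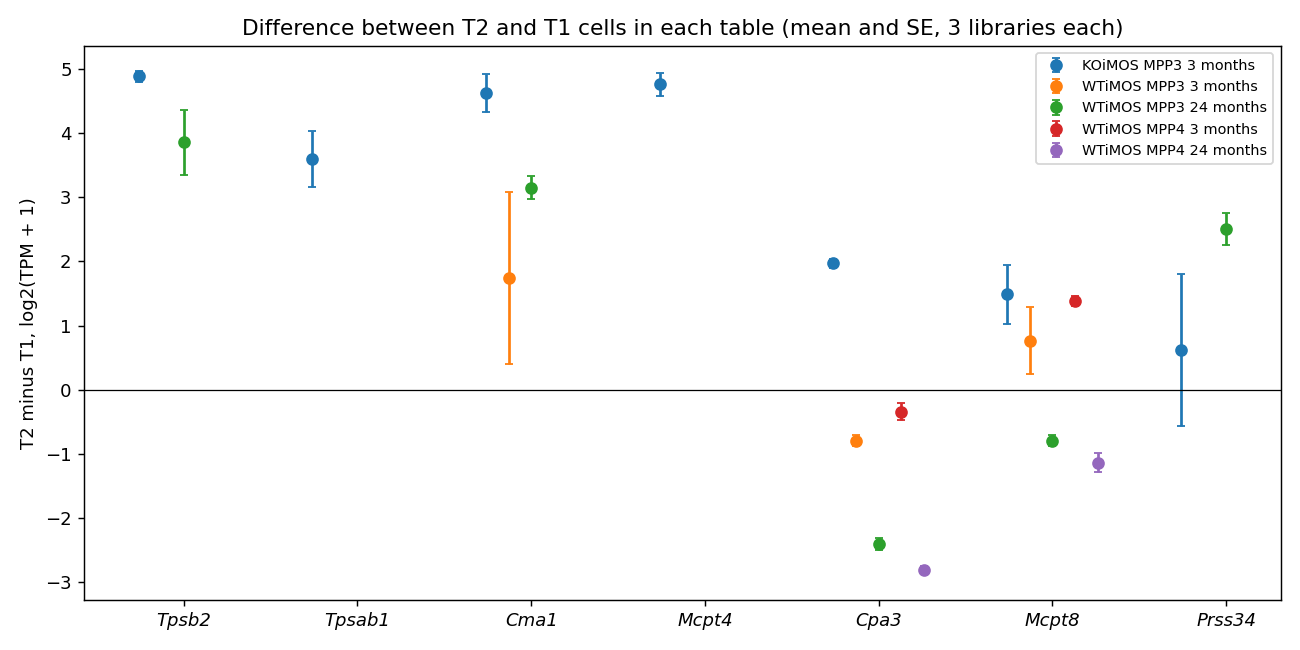
Difference of T2 and T1 means of log2(TPM + 1) with its SE (3 libraries each) for each gene and table; pairs in which a group is listed at 0, or in which both groups are below 1 TPM, are left out. Cpa3 lay at 1.97 in KOiMOS MPP3 and at -2.81 in WTiMOS MPP4 of 24 months, and Mcpt8 at 1.49 and -1.14 in the same tables.

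Counted over the 7 genes, every T2 library was above every T1 library for 6 genes in KOiMOS MPP3, 1 in WTiMOS MPP3 of 3 months, 4 in WTiMOS MPP3 of 24 months, 1 in MPP4 of 3 months and 0 in MPP4 of 24 months. The same held for 21%, 21.4%, 37.3%, 8.98% and 61.2% of all genes tested in these tables, in that order. Every T2 library was below every T1 library for 0, 1, 2, 0 and 2 of the 7, against 28.4%, 11.5%, 15.6%, 72.8% and 7.72% of all genes. In either direction the libraries of 49.3%, 32.9%, 52.8%, 81.8% and 69% of all genes did not overlap. The genes were chosen on this contrast, so the counts describe the choice. The filter used for tests, at least 1 TPM in 3 of the 6 libraries of a table, was passed by 7, 4, 6, 2 and 2 of them. The median difference over all genes tested was -0.04 in KOiMOS MPP3, 0.10 and 0.18 in WTiMOS MPP3 of 3 and 24 months, and -0.74 and 0.43 in MPP4 of 3 and 24 months (log2), so differences in MPP4 are read against a shifted middle. With the median-ratio scaling, which removes this shift, Mcpt8 in MPP4 stood at 2.18 at 3 months and -1.58 at 24 months, and Cpa3 at -3.25 at 24 months.

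The T2 libraries of WTiMOS MPP3 of 3 months split in these genes. Replicate 1 listed Tpsb2, Tpsab1 and Mcpt4 at 0 and had the lowest Cma1 and Prss34, while replicates 2 and 3 held all 5. Some eosinophil markers were also lowest in replicate 1. Prg2, the major basic protein, measured 3.49, 172 and 362 TPM in T2 libraries 1 to 3 and at most 1.59 TPM in T1. Epx, eosinophil peroxidase, measured 0.0417, 9.97 and 50.5 TPM in T2 libraries and at most 1.69 TPM in T1. Both were highest in replicate 3, as was Tpsab1, while Tpsb2, Cma1, Mcpt4 and Prss34 were highest in replicate 2. Of the 9 eosinophil markers listed, 5 were tested. Among these 1 was called higher in T2 and 4 did not pass, where 8.39% of all genes were called higher. Summed over 9 eosinophil markers, 6 of which averaged 1 TPM or more in T2 and 4 in T1, the level was 29.5 to 471 TPM in T2 and 14.4 to 34.0 TPM in T1 libraries, with Ear1 and Alox15 listed at 0 in T2 and Ear6 in T1. The part of these markers in the result was not tested. Without replicate 1, Tpsb2, Tpsab1 and Mcpt4 were above 0 in each T2 library and at 0 in each T1 library, and Cma1 no longer overlapped. Replicate 1 was picked for these same values, so this separation follows from the choice and is a description only. By contrast Cpa3, Gata2, Kit and the granule membrane protein Cd63 varied little among the 3 T2 libraries, with Gata2 at 89.2, 86.8 and 104 TPM. In T1 cells of KOiMOS MPP3 the spread of Prss34 was joined by Mcpt8, both highest in replicate 1, while Cma1 and Tpsab1 were highest in replicate 3. The eosinophil sum was 23.5 to 45.2 TPM in T2 and 33.5 to 45.6 TPM in T1 libraries of KOiMOS MPP3, and Prg2 there measured 11.3, 0.476 and 14.07 TPM in T2 and 0.896, 16.8 and 1.10 TPM in T1 libraries, highest in T1 replicate 2.

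**Figure D3:**
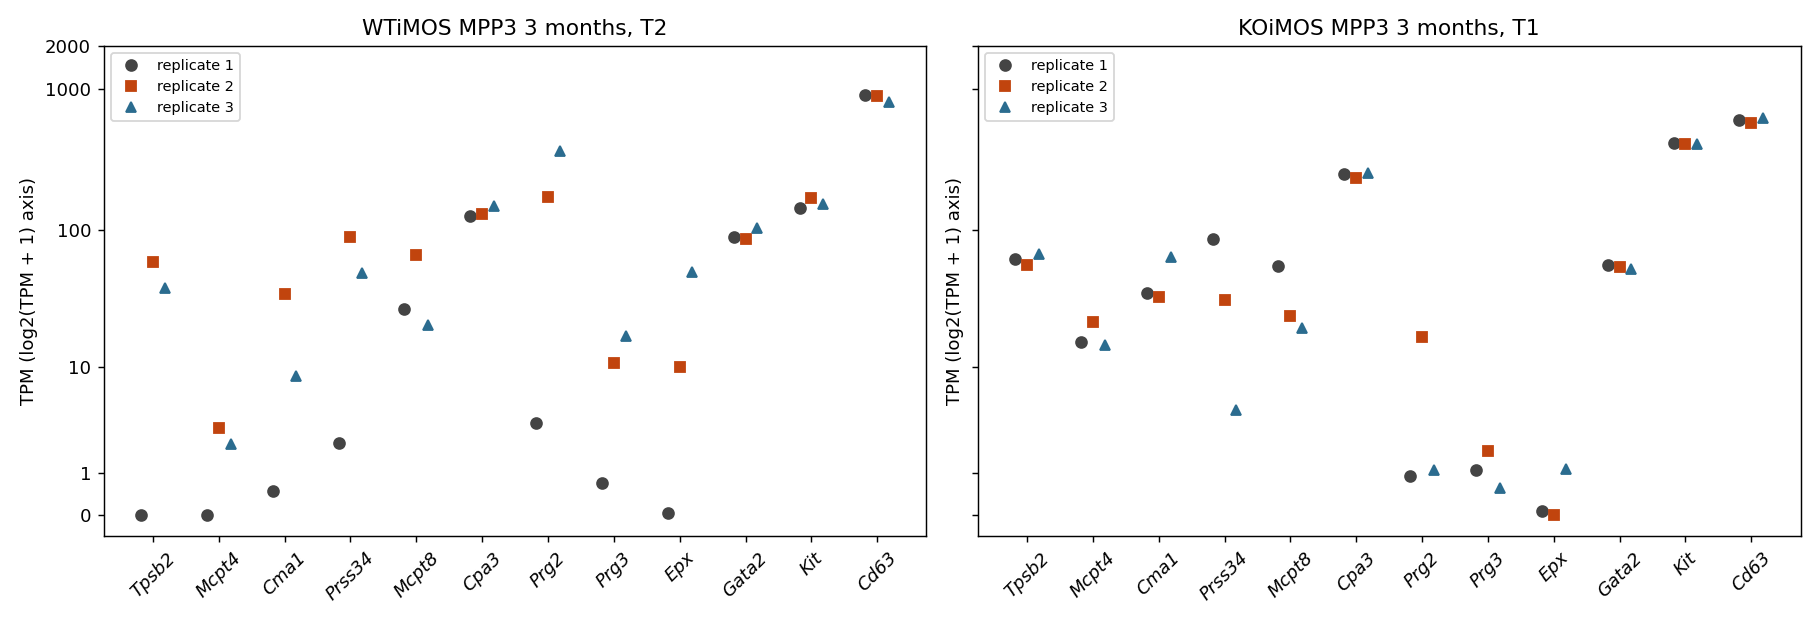
TPM (axis of log2(TPM + 1)) of 6 of the proteases, 3 eosinophil genes (Prg2, Prg3, Epx) and Gata2, Kit and Cd63 in each of the 3 libraries of T2 WTiMOS MPP3 and of T1 KOiMOS MPP3, both of 3 months. In the first group replicate 1 lies far below replicates 2 and 3 for Tpsb2 (0 against 59.5 and 38.6 TPM) and Prg2 (3.49 against 172 and 362 TPM).

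Other genes of the 2 lineages, in 5 lists of 78 genes, were tested with limma on log2(TPM + 1), each table on its own, with Benjamini-Hochberg adjustment over all genes of the table and a call at 0.05. By this test 36.4% of all genes were called in KOiMOS MPP3, 14.3% and 42% in WTiMOS MPP3 of 3 and 24 months, and 81.3% and 65.2% in MPP4 of 3 and 24 months. In KOiMOS MPP3 58 of the 78 were tested. Of these, 31 were higher in T2, 17 lower and 10 did not pass, where 15.9% of all genes were called higher and 20.4% lower. The filter can be passed through 1 group alone, so such genes enter these counts only because of the group where they are high. Mrgprb1, Cma2 and Il6, among others called higher, were below 1 TPM in every T1 library and passed only through T2. Ptgs2, called lower, passed only through T1. The median difference of the 58 genes was 0.31, against -0.04 over all genes. Over the same lists it was 0.10 and 0.47 in WTiMOS MPP3 of 3 and 24 months (0.10 and 0.18 over all genes), and -0.63 and 0.34 in MPP4 of 3 and 24 months (-0.74 and 0.43 over all genes).

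Of 18 other serine proteases listed, 5 could be tested in KOiMOS MPP3 and 4 were higher in T2, with none lower. Of all genes, 15.9% were called higher and 20.4% lower. Tpsg1, a membrane-bound tryptase, averaged 22.0 ± 1.27 TPM in T2 and 0.926 ± 0.22 TPM in T1 cells (11.97-fold, adjusted p = 6.95e-10). Ctsg, cathepsin G, which neutrophil precursors also make, averaged 813 ± 58.3 TPM in T2 and 423 ± 15.6 TPM in T1 cells (1.92-fold, adjusted p = 6.22e-08). Gzmb, granzyme B, averaged 81.1 ± 10.6 TPM in T2 and 9.92 ± 5.64 TPM in T1 cells (8.37-fold, adjusted p = 0.0131), a call that was lost without T2 replicate 3 (adjusted p = 0.0513). Cma2 was also higher, at 3.35 ± 0.36 TPM in T2 and 0.395 ± 0.15 TPM in T1 cells, and is named although below the level of 5 TPM asked of named genes. Without T2 replicate 3, 2 remained called, because Gzmb lost its call and Cma2 no longer passed the filter and was not tested.

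Receptors of mast cells and basophils were higher in T2 for 10 of 19 tested in KOiMOS MPP3 and lower for 6, where 15.9% of all genes were called higher and 20.4% lower. Among the 10, Mrgprb1, Adora3 and Hrh4 averaged 0.729, 0.464 and 0.141 TPM in T1 cells. They passed the filter only through T2, so they could enter the count only where they are high. Mrgprb2, the receptor through which basic peptides activate mouse mast cells, averaged 44.3 ± 5.11 TPM in T2 and 1.82 ± 0.36 TPM in T1 cells (16.1-fold, adjusted p = 3.80e-10). Mrgprb1, its neighbour in the same family, averaged 14.2 ± 0.87 TPM in T2 and 0.729 ± 0.20 TPM in T1 cells (8.80-fold, adjusted p = 2.92e-09). Il1rl1, the receptor of interleukin 33, averaged 35.7 ± 3.86 TPM in T2 and 3.37 ± 0.44 TPM in T1 cells (8.40-fold, adjusted p = 1.15e-09). All 3 chains of the IgE receptor rose: Fcer1a, which binds IgE, by 24.4-fold (93.8 ± 4.89 TPM in T2, 3.25 ± 1.91 TPM in T1, adjusted p = 0.00227), Ms4a2 by 2.38-fold (adjusted p = 1.06e-06) and Fcer1g by 2.64-fold (388 ± 16.8 TPM in T2, 146 ± 10.9 TPM in T1, adjusted p = 3.47e-09). Kit, the stem cell factor receptor on which mast cells depend, and which all these progenitors carry, averaged 385 ± 28.6 TPM in T2 and 413 ± 4.03 TPM in T1 cells and did not pass (adjusted p = 0.134), but was called lower without T2 replicate 2 (-0.16, adjusted p = 0.00695). The 6 that fell were Il3ra, Csf2ra, Csf2rb, Il4ra, Itgb7 and Itga2, of which the first 4 are cytokine receptor chains. Il3ra lost its call without T1 replicate 2 (adjusted p = 0.0809), and Itga2 without any 1 of 4 libraries, T2 replicates 1 and 3 and T1 replicates 2 and 3 (adjusted p 0.0517 to 0.0811).

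Genes of granule content and mediator synthesis were higher in T2 for 9 of 16 tested in KOiMOS MPP3 and lower for 4, where 15.9% of all genes were called higher and 20.4% lower. Among the 9, Tph1 averaged 0.340 TPM in T1 cells and passed the filter only through T2. Alox5, the enzyme that starts leukotriene synthesis, averaged 50.8 ± 3.35 TPM in T2 and 5.66 ± 0.80 TPM in T1 cells (7.80-fold, adjusted p = 7.92e-10). Hdc, which makes histamine, averaged 156 ± 10.9 TPM in T2 and 50.2 ± 1.57 TPM in T1 cells (3.05-fold, adjusted p = 1.91e-09). Ndst2, which sulfates the heparin that holds the proteases, averaged 17.8 ± 1.06 TPM in T2 and 4.62 ± 0.27 TPM in T1 cells (3.35-fold, adjusted p = 3.80e-08). Cd63 rose 1.81-fold (adjusted p = 4.72e-08). The 4 that fell were Srgn, the core protein of the granule proteoglycan, Ltc4s and Alox5ap of the leukotriene pathway, and the prostaglandin synthase Ptgs2.

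Of 12 transcription factors tested in KOiMOS MPP3, 5 were higher in T2 and 4 lower, and without T2 replicate 1 or 2 the higher ones were 3. Of all genes, 15.9% were called higher and 20.4% lower. Gata1 averaged 29.8 ± 2.86 TPM in T2 and 16.7 ± 1.10 TPM in T1 cells (1.74-fold, adjusted p = 1.43e-05), Tal1 rose 1.41-fold (adjusted p = 0.000135) and Mitf, a mast cell regulator, rose 1.58-fold (adjusted p = 0.00101). Gata2 averaged 63.8 ± 6.08 TPM in T2 and 54.7 ± 1.89 TPM in T1 cells (1.16-fold, adjusted p = 0.0315), and Bhlhe40 was higher too. Gata2 lost its call without any 1 of T2 replicates 1 and 2 and T1 replicates 2 and 3 (adjusted p 0.0787 to 0.128), and Bhlhe40 without T2 replicate 1 or 2 or T1 replicate 1 (adjusted p 0.0719 to 0.0862). Runx1 was lower (38.2 ± 2.58 TPM in T2, 52.6 ± 0.44 TPM in T1, adjusted p = 0.000118), as were Stat5a, Stat5b and Ikzf2. Stat5b lost its call without T2 replicate 1 (adjusted p = 0.0779) or T1 replicate 3 (0.055). Of 6 cytokines and chemokines, Ccl2 rose 17.9-fold (65.2 ± 7.68 TPM in T2, 2.94 ± 1.69 TPM in T1, adjusted p = 0.0013), and Il4 and Il6 rose too. Ccl4 fell (27.3 ± 4.08 TPM in T2, 184 ± 13.9 TPM in T1, adjusted p = 5.47e-07), as did Ccl3 (7.65 ± 2.26 TPM in T2, 57.7 ± 5.17 TPM in T1, adjusted p = 0.000139) and Csf1 (adjusted p = 0.00361).

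**Figure D4:**
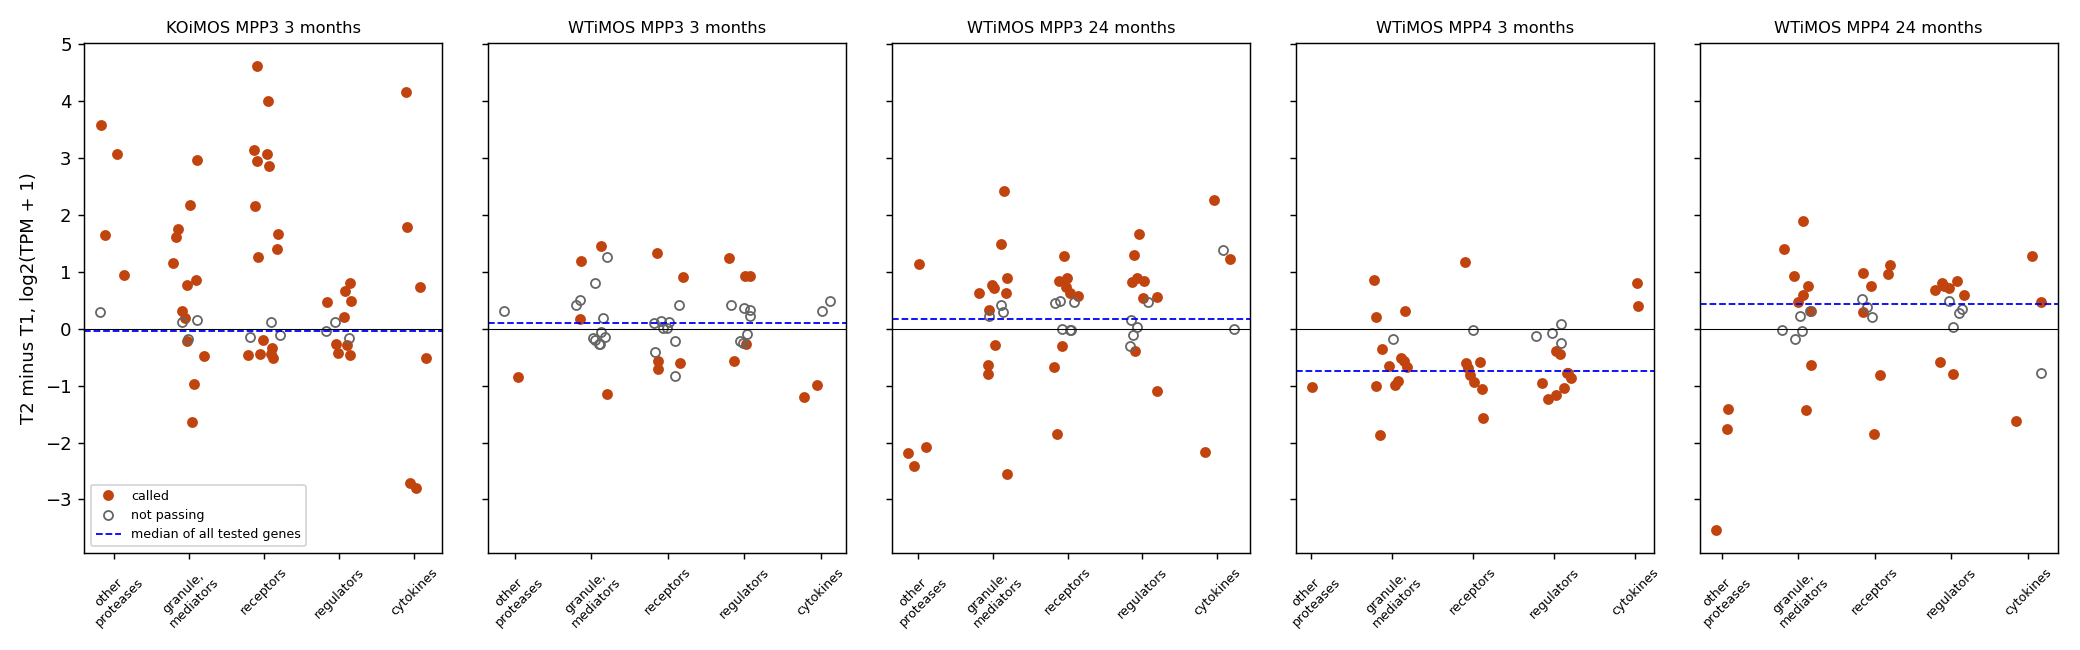
T2 minus T1 differences of log2(TPM + 1) for the tested genes of the 5 lists in each table; filled points were called by limma at adjusted p under 0.05, open points were not, and the dashed line is the median of all tested genes. In KOiMOS MPP3 31 of 58 genes were called higher and 17 lower, and the dashed line lies at -0.74 and 0.43 in MPP4 of 3 and 24 months.

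In WTiMOS MPP3 of 3 months 47 of the 78 list genes were tested, with 8 higher in T2, 9 lower and 30 not passing, where 8.39% of all genes were called higher and 5.96% lower. The count of lower genes was 4 without T1 replicate 1 and 5 without T1 replicate 2. Of the higher genes, Cd63 averaged 863 ± 46.5 TPM in T2 and 314 ± 16.3 TPM in T1 cells (2.74-fold, adjusted p = 5.55e-08), Gata2 93.2 ± 9.06 TPM in T2 and 48.9 ± 7.62 TPM in T1 cells (1.90-fold, adjusted p = 0.000626), Gata1 rose 2.37-fold (adjusted p = 0.00598) and Slc18a2, the transporter that loads amines such as histamine into granules, 2.29-fold (adjusted p = 0.00051). Ccl4 fell (110 ± 20.4 TPM in T2, 252 ± 27.4 TPM in T1, adjusted p = 4.82e-05), as did Fcer1g (96.6 ± 2.66 TPM in T2, 143 ± 3.46 TPM in T1, adjusted p = 0.00109). Ctsg was lower in T2 (532 ± 113 TPM, against 945 ± 109 TPM in T1, adjusted p = 0.0102), a difference of -0.84 that was -0.83 without T1 replicate 1 but lost its call (adjusted p = 0.0657). Fcer1a averaged 2.13 ± 1.86 TPM in T2 and 1.57 ± 0.98 TPM in T1 cells and did not pass (adjusted p = 0.926), and Il1rl1 was below the filter. Ms4a2, another chain of the IgE receptor, averaged 7.72 ± 4.51 TPM in T2 and 2.32 ± 1.13 TPM in T1 cells (2.52-fold, adjusted p = 0.0334). Its call was lost without T2 replicate 3 (adjusted p = 0.131), T1 replicate 1 (0.127) or T1 replicate 2 (0.066).

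WTiMOS MPP3 of 24 months had 53 list genes tested, 24 of them higher in T2, 13 lower and 16 not passing, where 30% of all genes were called higher and 12% lower. With median-ratio scaling the higher ones were 18 and the lower ones 13, where 18.8% of all genes were called higher and 18.7% lower. Fcer1a averaged 116 ± 16.5 TPM in T2 and 64.4 ± 8.84 TPM in T1 cells (1.79-fold, adjusted p = 0.000506), a call that was lost when all 30 libraries shared 1 fit (adjusted p = 0.119). Ms4a2 was higher too (6.22 ± 1.75 TPM in T2, 2.83 ± 0.20 TPM in T1, adjusted p = 0.00366). Fcer1g of the same receptor was lower in T2 (375 ± 9.83 TPM, against 463 ± 11.9 TPM in T1, adjusted p = 0.0141), and lost its call without T2 replicate 3 (adjusted p = 0.0591), T1 replicate 1 (0.0551) or T1 replicate 3 (0.055). Mrgprb2, high in T2 of KOiMOS MPP3, stood at 2.16 ± 1.02 TPM in T2 and 0.273 ± 0.24 TPM in T1 cells. Cd63 rose 5.33-fold (775 ± 47.2 TPM in T2, 146 ± 22.1 TPM in T1, adjusted p = 4.49e-08) and Gata2 3.16-fold (39.8 ± 3.28 TPM in T2, 12.04 ± 2.46 TPM in T1, adjusted p = 8.68e-06). Il4, a cytokine that basophils release, rose 4.82-fold (7.45 ± 0.65 TPM in T2, 0.903 ± 0.89 TPM in T1, adjusted p = 0.000282). Ctsg and Gzmb, like Cpa3 and Mcpt8, were lower in T2. Ctsg averaged 718 ± 19.6 TPM in T2 and 3278 ± 171 TPM in T1 cells (adjusted p = 5.11e-09), and Gzmb 20.8 ± 2.25 TPM in T2 and 90.8 ± 3.41 TPM in T1 cells (adjusted p = 1.92e-07).

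MPP4 libraries listed Tpsb2, Tpsab1, Mcpt4 and Prss34 at 0, and calls of the other list genes there moved with the scaling. At 3 months 6 of 38 list genes were higher in T2 and 26 lower, and 12 and 6 with median-ratio scaling, where 8.71% of all genes were called higher and 72.6% lower without it and 25.5% and 26.8% with it. At 24 months 20 of 43 were higher in T2 and 10 lower, and 8 and 15 with that scaling, where 58.2% of all genes were called higher and 7% lower without it and 14.9% and 19.2% with it. Fcer1g was higher in T2 at 3 months (315 ± 15.4 TPM, against 139 ± 4.11 TPM in T1, adjusted p = 2.43e-09). Kit was lower in T2 at 3 months (46.8 ± 5.60 TPM, against 82.6 ± 8.19 TPM in T1, adjusted p = 1.05e-05), a difference of -0.81 that went to 0.0085 with that scaling, and higher in T2 at 24 months (91.9 ± 12.3 TPM, against 41.5 ± 3.07 TPM in T1, adjusted p = 3.25e-05). Ctsg was lower in T2 at 24 months (367 ± 21.9 TPM, against 1248 ± 32.1 TPM in T1, adjusted p = 4.54e-08) and so was Gzmb (0.115 ± 0.20 TPM, against 11.8 ± 0.85 TPM in T1, adjusted p = 2.83e-07).

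The chymase locus held genes that behaved differently side by side. Cma2, Mcpt1, Mcpt9 and Mcpt2 lie between Cma1 and Mcpt4, a distance of 118 kb, and their group means were at most 4.63 TPM in MPP3. Mcpt8 and Ctsg follow at 141 and 158 kb from the left end of Cma1 and were listed above 0 in T2 and T1 cells of every table. Beyond them 6 granzyme genes, from Gzme to Gzmc, had means of at most 4.76 TPM, and Gzmb at the far end reached 81.1 TPM in T2 of KOiMOS MPP3 and 90.8 TPM in T1 of WTiMOS MPP3 of 24 months. Cma1 and Mcpt4 in WTiMOS MPP3 of 24 months were higher in T2, while Mcpt8, Ctsg, Gzmc and Gzmb were higher in T1. In the tryptase locus Prss28 and Prss29, which lie between Prss34 and Tpsab1, were listed at 0 in every group mean.

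**Figure D5:**
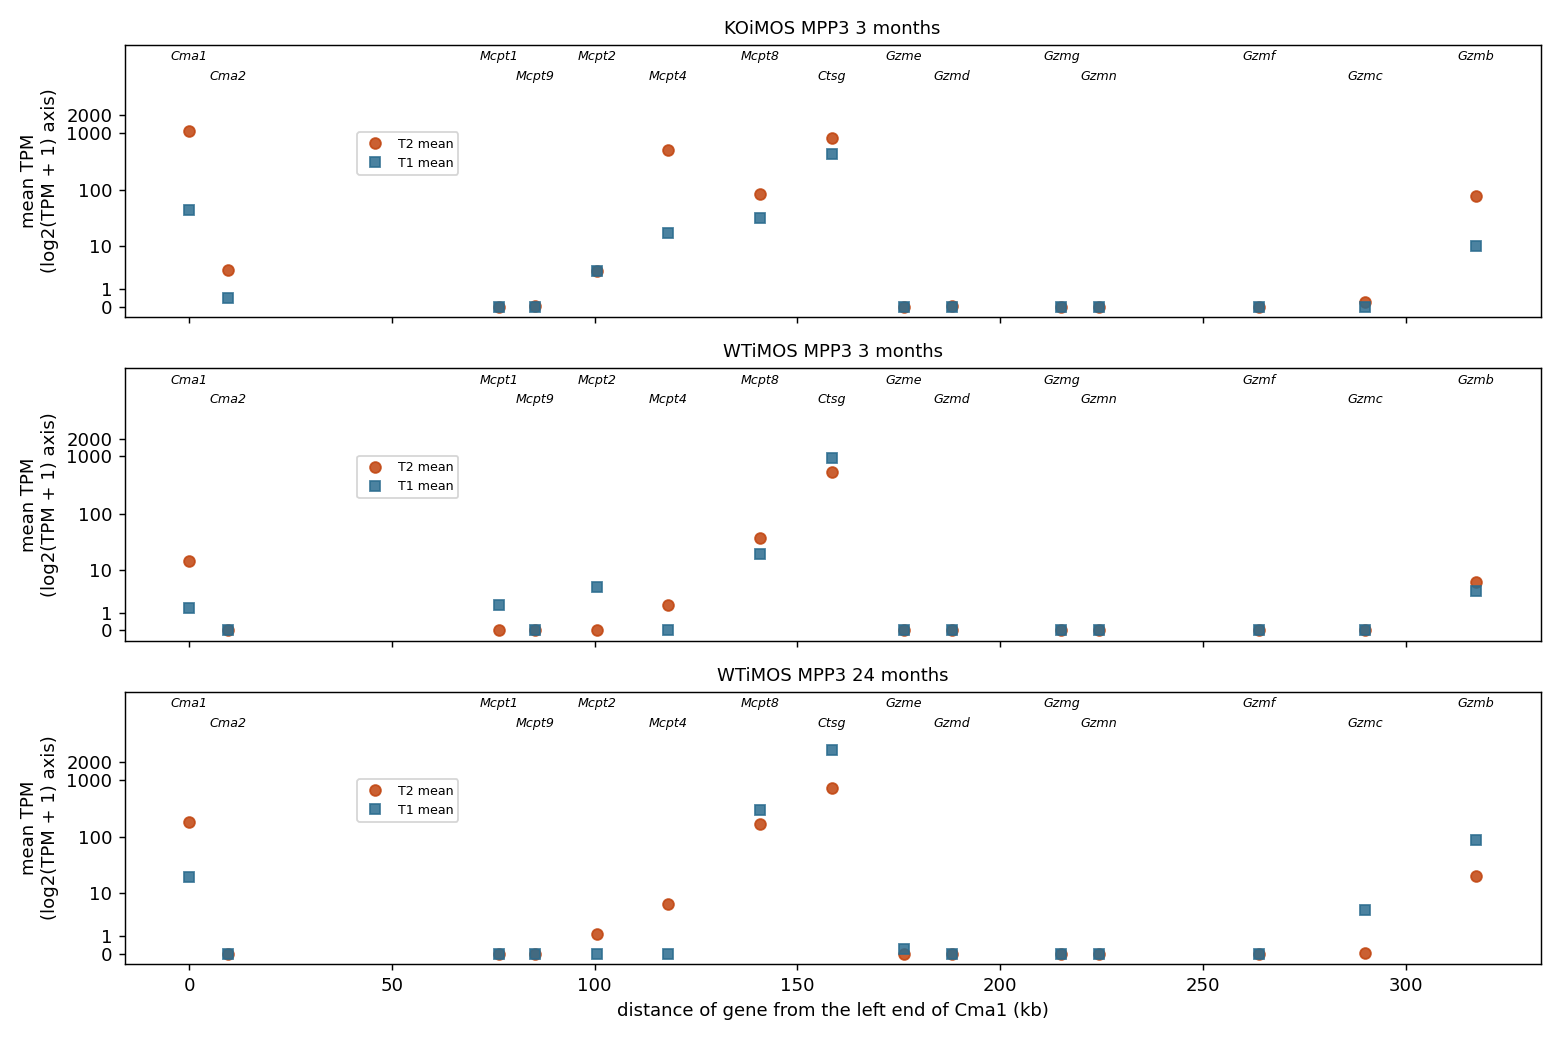
Mean TPM (axis of log2(TPM + 1), 3 libraries each) of the genes of the chymase locus in the 3 MPP3 tables, by distance in kb from the left end of Cma1, with T2 as circles and T1 as squares. In WTiMOS MPP3 of 24 months T2 lies above T1 for Cma1 and Mcpt4 (184 against 20.04 TPM, and 6.30 TPM against 0) and below it for Mcpt8 and Ctsg (172 against 299 TPM, and 718 against 3278 TPM).

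Likeness between genes was measured as Pearson's r of log2(TPM + 1) over all 30 libraries, which share tables and conditions, so no p is given. Tpsb2 was most like Mcpt4 (r = 0.962), Cma1 (0.927), Prss34 (0.882) and Tpsab1 (0.859), and less like Cpa3 (0.554) and Mcpt8 (0.189). Over the 24 WTiMOS libraries alone the first 4 values were 0.928, 0.860, 0.880 and 0.510. Among other genes that reached 5 TPM in 3 or more libraries, Mrgprb2 was most like Tpsb2 (r = 0.927) and Mcpt4 (0.970), followed by Arap3 for Tpsb2 (0.921) and Atp8b5 for Mcpt4 (0.955). Over the WTiMOS libraries alone Mrgprb2 stood at 0.882 with Tpsb2 and 0.906 with Mcpt4, Arap3 at 0.689 and Atp8b5 at 0.723. Tpsab1 was most like Etv4, a transcription factor (0.982), and Mrgprb1 (0.970), which stood at 0.902 and 0.584 over the WTiMOS libraries. Among WTiMOS libraries Tpsab1 was above 0 only in T2 replicates 2 and 3 of MPP3 of 3 months (0.348 and 2.09 TPM). Etv4 there reached at most 1.46 TPM and Mrgprb1 at most 0.145 TPM. These WTiMOS values of r, and the 0.510 of Tpsab1 with Tpsb2, therefore rest on few libraries near 0. Cma1 was most like Cd200r3, a receptor of basophils and mast cells (0.937), and Il1rl1 (0.932), with Fcer1a also among its first 5 (0.875), and these 3 stood at 0.901, 0.916 and 0.921 over the WTiMOS libraries. Cpa3 was most like Gzmb (0.942, and 0.943 over the WTiMOS libraries). Mcpt8 was most like Aldh1a1 (0.877, and 0.893 over the WTiMOS libraries) and Clec4d (0.826 and 0.924), and Prss34 most like Axl (0.907 and 0.849) and Gspt2 (0.904 and 0.871). Of the genes named, Mrgprb2, Atp8b5, Etv4, Mrgprb1 and Il1rl1 reached 5 TPM only in T2 libraries of KOiMOS MPP3. They entered the comparison only through the group where Tpsb2, Mcpt4, Tpsab1 and Cma1 were highest. Their high r over all 30 libraries was therefore in part fixed in advance.

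Genes of other cell types also differed between T2 and T1 cells. The sum of 11 erythroid markers was 2593 to 2728 TPM in T2 and 881 to 958 TPM in T1 libraries of KOiMOS MPP3. There 8 of 11 were called higher in T2 and 0 lower, where 15.9% of all genes were called higher and 20.4% lower. Car2 made up most of this sum (1971 ± 95.6 TPM in T2, 796 ± 23.6 TPM in T1). The erythroid sum was also higher in T2 without overlap in WTiMOS MPP3 of 3 months (1562 to 1846 TPM in T2, 603 to 709 TPM in T1), in WTiMOS MPP3 of 24 months (1457 to 1609 TPM in T2, 346 to 439 TPM in T1) and in MPP4 of 24 months (802 to 953 TPM in T2, 454 to 463 TPM in T1). In MPP4 of 3 months the sums overlapped, at 631 to 696 TPM in T2 and 583 to 674 TPM in T1 libraries. Of 7 erythroid markers tested there, 4 were called higher in T2 and 2 lower, where 8.71% of all genes were called higher and 72.6% lower. The sum of 10 neutrophil markers in KOiMOS MPP3 was 7231 to 7567 TPM in T2 and 3769 to 3996 TPM in T1 libraries, and in WTiMOS MPP3 of 24 months 1431 to 1769 TPM in T2 and 6938 to 8030 TPM in T1 libraries. It overlapped in WTiMOS MPP3 of 3 months, at 5884 to 7743 TPM in T2 and 6596 to 7561 TPM in T1 libraries, and was lower in T2 in MPP4, at 620 to 638 TPM in T2 and 963 to 1035 TPM in T1 at 3 months and 523 to 657 TPM in T2 and 804 to 875 TPM in T1 at 24 months. In T2 of KOiMOS MPP3 nearly all of the neutrophil sum was Mpo (5125 TPM), Elane (1138 TPM), Prtn3 (818 TPM) and Ms4a3 (236 TPM). Ltf, Camp and Ngp averaged at most 1.62 TPM there. Prg2 in WTiMOS MPP3 of 24 months averaged 46.0 ± 3.11 TPM in T2 and 0.476 ± 0.36 TPM in T1 cells, with Epx at most 0.0802 TPM. The sum of 8 B cell markers was lower in T2 without overlap in all 3 MPP3 tables, at 60.7 to 70.8 TPM in T2 and 102 to 113 TPM in T1 libraries of KOiMOS, 193 to 252 TPM in T2 and 802 to 1032 TPM in T1 libraries of WTiMOS of 3 months, and 137 to 140 TPM in T2 and 408 to 493 TPM in T1 libraries of WTiMOS of 24 months. That of 8 macrophage markers was 169 to 178 TPM in T2 and 127 to 139 TPM in T1 libraries of KOiMOS MPP3, and 144 to 168 TPM in T2 and 199.8 to 246 TPM in T1 libraries of WTiMOS MPP3 of 3 months. In the latter 4 of 7 macrophage markers tested were called higher in T2 and 3 lower, where 8.39% of all genes were called higher and 5.96% lower. The median difference of the 7 there was 1.34 (log2), so the sum and most of its genes went different ways. The sum of 7 T and NK cell markers was 350 to 376 TPM in T2 and 603 to 614 TPM in T1 libraries of KOiMOS MPP3. Nearly all of it was Nkg7 (362 ± 15.1 TPM in T2, 604 ± 5.75 TPM in T1), and 2 of the 7 averaged 1 TPM or more in each group. Klrb1c was called higher in T2 (3.51 against 0.989 TPM). The sum was higher in T2 without overlap in WTiMOS MPP3 of 3 months (873 to 1039 TPM in T2, 759 to 793 TPM in T1) and MPP4 of 3 months (1508 to 1608 TPM in T2, 1060 to 1120 TPM in T1). Of the 3 and 2 markers tested in these 2 tables, 1 was called higher and 1 lower in each. Of all genes there, 8.39% and 8.71% were called higher, and 5.96% and 72.6% lower. In MPP4 of 3 months the B cell sum was 82.4 to 104 TPM in T2 and 131 to 149 TPM in T1 libraries. The macrophage sum there was 44.4 to 51.8 TPM in T2 and 76.3 to 83.0 TPM in T1 libraries. Both sums were lower in T2 without overlap, as were 72.8% of all genes tested. Of 4 B cell markers tested there, though, 2 were called higher in T2 and 1 lower, where 8.71% of all genes were called higher and 72.6% lower. In MPP4 of 24 months the macrophage sum was 57.3 to 78.3 TPM in T2 and 45.3 to 49.2 TPM in T1 libraries. It was thus higher in T2 without overlap, as were 61.2% of all genes tested. The part of these sums in the results was not tested. The sum of 4 Y-linked genes was 54.0 to 76.8 TPM in T2 and listed at 0 in T1 libraries of WTiMOS MPP3 of 24 months, 106 to 115 TPM in T2 and listed at 0 in T1 libraries of MPP4 of 3 months, and 158 to 169 TPM in T2 and 0.0607 to 0.184 TPM in T1 libraries of MPP4 of 24 months. In the MPP3 tables of 3 months it was 55.3 to 61.2 TPM in T2 and 110 to 114 TPM in T1 (KOiMOS), and 33.8 to 58.5 TPM in T2 and 64.2 to 78.9 TPM in T1 (WTiMOS). In 3 of the 5 tables T2 and T1 therefore go with the presence and absence of Y-linked RNA, and the 2 cannot be told apart there. Xist, made from the inactive X chromosome of females, was found in both T2 and T1 libraries, but not at the same level. In the same 3 tables it was called lower in T2, as at 20.4 ± 2.23 TPM in T2 and 69.2 ± 7.36 TPM in T1 libraries of WTiMOS MPP3 of 24 months. In KOiMOS MPP3 it was called higher in T2 (28.9 ± 0.52 TPM, against 21.8 ± 0.92 TPM in T1). The part of these differences in the values of the 7 genes was not tested.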

How the data were processed

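Expression was given as TPM per gene, which the authors deposited in 5 tables of 6 libraries. HISAT2, StringTie, featureCounts, DESeq2 and mm10 are named per the submitters' processing notes, without versions, and the sources used here do not give the tool behind the TPM. Per the labels' protocols cDNA was made with a kit for low input, and 0 columns stayed without a sample. Depth is unknown, so no counting interval is given.

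Each table was fitted alone in R 4.3.3 with limma 3.58.1 (lmFit, then eBayes with trend and robust moderation, 4 residual degrees of freedom) on log2(TPM + 1), keeping genes that reached 1 TPM in 3 or more of the 6 libraries, with Benjamini-Hochberg adjustment and a call at 0.05. A fold change is on the log2(TPM + 1) scale and understates that of low genes. The script was tested on simulated data.

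The members and the gene lists were chosen with earlier results of these data known, and so was the decision to fit each table alone. Named genes are all members; of each of 5 lists and per table up to 4 called genes by smallest p with at least 5 TPM in the higher group; the 5 genes most like each member; and the listed markers of mast cells and of progenitors, of which Cd34 and Flt3 were added after their values were seen. Genes of the 2 loci are named by position, and eosinophil genes as markers; these and the other called list genes named were chosen after their values were seen. Predicted genes and pseudogenes were left out. Alternatives were median-ratio scaling, no filter, a pseudocount of 0.1, all 30 libraries in 1 fit, replicate number as a block and each library left out. Positions are from GENCODE vM21, promoters from RefSeq. Figures were drawn with matplotlib 3.10.9.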

Additional observations from a re-analysis of the deposited data

Results flagged for a closer look

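Some members and named genes differed between T2 and T1 cells with no overlap of libraries in opposite directions in different tables. Within a table the libraries of 32.9% to 81.8% of all genes tested did not overlap. In MPP4 every T2 library was lower for 72.8% of all genes at 3 months and higher for 61.2% at 24 months. The share of all genes with opposite directions in different tables was not counted, so the genes below are a description only. The difference between tables was not tested, and scaling matters most for those that involve MPP4. Values are the higher T2 minus T1 difference less the lower (log2). For Cpa3 it was 4.79, from 1.97 in KOiMOS MPP3 and -2.81 in WTiMOS MPP4 of 24 months, with T2 above T1 in 1 table and below it in 3. Mcpt8 gave 2.63 between the same tables, with T2 above in 2 and below in 2. Gzmb gave 6.59, from 3.07 in KOiMOS MPP3 and -3.53 in WTiMOS MPP4 of 24 months. Ctsg gave 3.13, from 0.94 in KOiMOS MPP3 and -2.19 in WTiMOS MPP3 of 24 months, with T2 below in the other 4 tables. Ccl3 gave 3.6 and Ccl4 3.11, both highest in WTiMOS MPP4 of 3 months and lowest in KOiMOS MPP3. Fcer1g gave 1.97 between KOiMOS and WTiMOS MPP3 of 3 months. Gata2 gave 2.61 and Stat5a 1.99 between WTiMOS MPP3 of 24 months and MPP4 of 3 months, and Kit 1.93 between MPP4 of 24 and of 3 months. With median-ratio scaling the calls of Gata2 (-0.23), Kit (0.0085) and Ctsg (-0.21, adjusted p = 0.0668) in MPP4 of 3 months were lost.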

How the results depend on the processing

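Over 165 recomputed counts of called genes and of list genes, 155 stayed within 1.5 times the value given. Without a filter on low values 1056 genes were called in WTiMOS MPP3 of 3 months, against 1682. Median-ratio scaling moved MPP4: 5901 genes were called at 3 months (9176 unscaled), with 12 list genes higher and 6 lower, and 3868 at 24 months (7407 unscaled), with 8 list genes higher. It moved the share of calls that were higher to 38% against 58.4% in WTiMOS MPP3 of 3 months, 50.1% against 71.4% at 24 months, 48.8% against 10.7% in MPP4 of 3 months and 43.7% against 89.3% at 24 months. It reversed Cpa3 (0.43) and Kit (0.0085, adjusted p = 0.95) in MPP4 of 3 months. Leaving out each library in turn gave 3345 to 4244 genes called in KOiMOS MPP3, 933 to 2197 and 3315 to 4917 in WTiMOS MPP3 of 3 and 24 months, and 8324 to 9160 and 6369 to 7023 in MPP4 of 3 and 24 months. List genes higher then ranged from 22 to 32, 6 to 9, 18 to 24, 6 to 6 and 17 to 19 in these tables, and lower from 14 to 18, 4 to 10, 9 to 13, 23 to 26 and 7 to 11. The filter was applied again to the libraries left, so a gene could also leave a count by no longer being tested. In WTiMOS MPP3 of 3 months 933 genes were called without T1 replicate 1 and 993 without T1 replicate 2. With the replicate number as a block, which the deviations of same-numbered libraries did not show to pair them, all 15 counts stayed within 1.5 times, and Gzmb in KOiMOS MPP3 (3.07, adjusted p = 0.0694) and Srgn in WTiMOS MPP3 of 3 months (0.17, adjusted p = 0.061) lost their calls. Fcer1a in WTiMOS MPP3 of 3 months, which did not pass, reversed with a pseudocount of 0.1 (-0.45) and when 1 library was left out (-0.29 to 0.79, below 0 without T2 replicate 2 or 3 or T1 replicate 1). Of 1167 recomputed values of named genes 1106 kept direction and call, 55 kept direction and lost the call, 1 gained it and 5 reversed. The cause of these changes was not tested. TPM keep no depth, so the precision of values near 0 is unknown.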
